A study of Homo sapiens with 6 samples.

Results

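DNA replication and S phase genes are the genes whose products load and start the replicative helicase, copy DNA at the fork, make deoxynucleotides and carry cells over the G1/S boundary. They were taken as the 45 rows of the deposited table whose symbol is in a given list, and all 45 symbols were found among 24789 genes with values. RNA sequencing was done on 6 libraries of LX-2, a human hepatic stellate cell line labelled wild type, grown in MEM with serum and antibiotics. A group of 3 libraries came from cells transfected with an siRNA against AEBP1, which encodes a carboxypeptidase-like protein, and a group of 3 from cells given scrambled siRNA. Each siRNA was used at 50 nM with a lipid reagent, and RNA was taken at 48 h in both groups. LX-2 is 1 immortalised line that carries a viral large T antigen, a protein known to bind the retinoblastoma protein, and no untransfected cells are among the libraries. The labels do not say whether the libraries of a group came from separate transfections, so the p-values measure only the spread between these libraries, which may be technical.

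In G1, the origin recognition complex, CDC6 and CDT1 load the MCM2 to MCM7 ring onto DNA, and geminin (GMNN) blocks CDT1 once S phase has begun. CDC45 and the GINS complex turn the loaded ring into a working helicase, polymerase alpha with primase lays down primers, and polymerases delta and epsilon extend them with the PCNA clamp. Many of these genes are transcribed at the G1/S boundary under E2F factors, which the retinoblastoma protein holds in check. Hepatic stellate cells are quiescent in healthy liver and are known to enter the cell cycle when they turn into the matrix-producing cells of liver fibrosis.

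The libraries held between 34433510 and 49432960 counts each. AEBP1, the targeted gene, was at 53.6, 48.7 and 25.1 CPM (counts per 1000000, scaled by TMM) in the libraries labelled scrambled 1 to 3. It was at 29.7, 27.7 and 48.3 CPM in those labelled AEBP1 siRNA 1 to 3, so the library labelled scrambled 3 and the library labelled AEBP1 siRNA 3 go against their labels. Groups below are the groups as labelled, and every direction drawn between them has that limit. On the first principal component, the library labelled AEBP1 siRNA 1 lay at 79.0 and the other 5 between -20.7 and -9.04. On the second, scrambled 1, scrambled 2 and AEBP1 siRNA 3 lay at 34.8, 16.9 and 21.6. Scrambled 3, AEBP1 siRNA 1 and AEBP1 siRNA 2 lay at -25.2, -2.32 and -45.7 on it, so its sign also cut across the labels. Of the stellate cell markers, COL1A1 (191 to 214 FPKM), VIM, SPARC and TIMP1 were high, while DES and LRAT had at most 9 counts in a library. Of the markers of other cell types, 2 of 8 for hepatocytes and 3 of 6 each for epithelium, leukocytes and endothelium passed the filter on low counts. The defining genes ALB, EPCAM, PTPRC and PECAM1 had at most 11 counts in a library. KRT18 (85.3 to 127 FPKM), KRT7 (484 to 869 counts), SOX9 (510 to 813), CD68 (727 to 1031) and SERPINA1 (205 to 379) were detected in each library.

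Promoter letters are shown first because E2F control is what these genes are known for, and because they set POLA2, the gene with the largest difference between the labelled groups, beside genes that varied less. RefSeq promoter windows of GRCh38.p14, reaching 250 bases before and 50 after the annotated start, were matched for 38 of the 45 genes. RPA2, MCM5, RPA3, MCM4, POLD3, CCNE2 and GINS4 had no entry. The windows below run 5′ to 3′ on the gene's strand, and capitals mark a 7-letter E2F-type match to TTTGGCG, to TTTCCCG, to TTTCGCG or to TTTGCCG, on either strand. POLA2 encodes the B subunit of polymerase alpha (chr11:65261712-65262011, plus strand). CDC6 encodes a loader of the MCM ring (chr17:40287629-40287928, plus strand). GINS2 encodes a GINS subunit (chr16:85688905-85689204, minus strand). PCNA encodes the sliding clamp and had the highest level of all 45 genes (chr20:5119909-5120208, minus strand).
POLA2: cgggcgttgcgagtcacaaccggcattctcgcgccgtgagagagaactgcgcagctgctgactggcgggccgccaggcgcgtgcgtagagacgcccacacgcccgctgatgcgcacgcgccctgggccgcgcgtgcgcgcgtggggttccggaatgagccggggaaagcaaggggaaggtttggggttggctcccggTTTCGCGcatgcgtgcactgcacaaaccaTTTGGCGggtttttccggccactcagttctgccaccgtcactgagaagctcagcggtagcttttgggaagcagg
CDC6: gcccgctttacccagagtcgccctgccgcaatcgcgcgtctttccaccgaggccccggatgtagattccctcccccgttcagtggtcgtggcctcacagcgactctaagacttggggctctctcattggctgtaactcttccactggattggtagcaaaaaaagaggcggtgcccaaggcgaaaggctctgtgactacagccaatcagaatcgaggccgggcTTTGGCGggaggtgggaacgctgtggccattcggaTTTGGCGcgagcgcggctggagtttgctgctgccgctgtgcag
GINS2: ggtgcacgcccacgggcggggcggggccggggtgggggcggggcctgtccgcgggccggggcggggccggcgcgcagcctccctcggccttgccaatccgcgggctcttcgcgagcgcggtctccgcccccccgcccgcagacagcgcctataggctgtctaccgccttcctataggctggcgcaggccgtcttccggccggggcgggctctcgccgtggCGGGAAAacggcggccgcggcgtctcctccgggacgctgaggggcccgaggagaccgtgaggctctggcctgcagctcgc
PCNA: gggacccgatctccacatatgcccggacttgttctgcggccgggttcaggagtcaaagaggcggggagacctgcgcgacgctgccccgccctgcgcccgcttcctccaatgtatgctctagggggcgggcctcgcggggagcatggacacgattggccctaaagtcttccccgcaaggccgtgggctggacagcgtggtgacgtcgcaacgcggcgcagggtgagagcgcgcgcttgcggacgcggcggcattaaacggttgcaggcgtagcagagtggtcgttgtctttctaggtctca

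The POLA2 window holds its matches at -53 and -24, counting the annotated start as 0. The CDC6 matches begin at -28 and 7 and the GINS2 match at -30, while the PCNA window holds none of the 4 words. An E2F-type match was found in 20 of the 38 windows (52.6%), against 8.57% of all 27305 promoter windows of the same length, 42.9% of 42 windows of other replication genes and 25% of 16 windows of G2 and mitosis genes. MCM6 had the most matches, 4 of them in overlapping pairs on opposite strands, and MCM2, MCM3, CDT1, POLE2 and UHRF1 had at least 2 each. The word CCAAT, searched on both strands, was in 55.3% of the 38 windows and 35.6% of all windows, and in 59.5% and 87.5% of the windows of those other lists. In none of the 38 did it overlap an E2F-type match. The words TTTGAA and TTCGAA, which resemble the cell cycle homology element of mitotic genes, were in 5.26% of the 38 windows, 11.9% of those of other replication genes, 68.8% of those of G2 and mitosis genes and 16.8% of all windows. These matches describe letters in a window, and binding was not measured.

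All 45 genes had counts in every library. PCNA had the highest level per transcript length, at 527 FPKM over the 6 libraries, followed by the nucleotide supply enzymes TYMS (254 FPKM), which makes thymidylate, and TK1 (204 FPKM), which salvages thymidine. The lowest was POLE2, the accessory subunit of polymerase epsilon, at 3.88 FPKM. Subunits that work as 1 complex in the cell differed several-fold in FPKM. MCM7 was the highest of MCM2 to MCM7 in each library, between 5.12 and 5.95 times the lowest subunit, which was MCM5 in 4 libraries and MCM6 in 2. GINS1 was the highest and GINS4 the lowest GINS subunit in each library, 3.18 to 4.09 times apart. PRIM2 was the highest and POLA1 the lowest part of the polymerase alpha and primase complex, 3.05 to 4.77 times apart. RFC2 led the clamp loader and RFC5 was its lowest subunit in each library, and RPA2 exceeded RPA1 and RPA1 exceeded RPA3 in all 6. Neighbours such as MCM5 and MCM6, or MCM3 and MCM4, changed places between libraries, so their order was not separated by the spread.

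**Figure D1:**
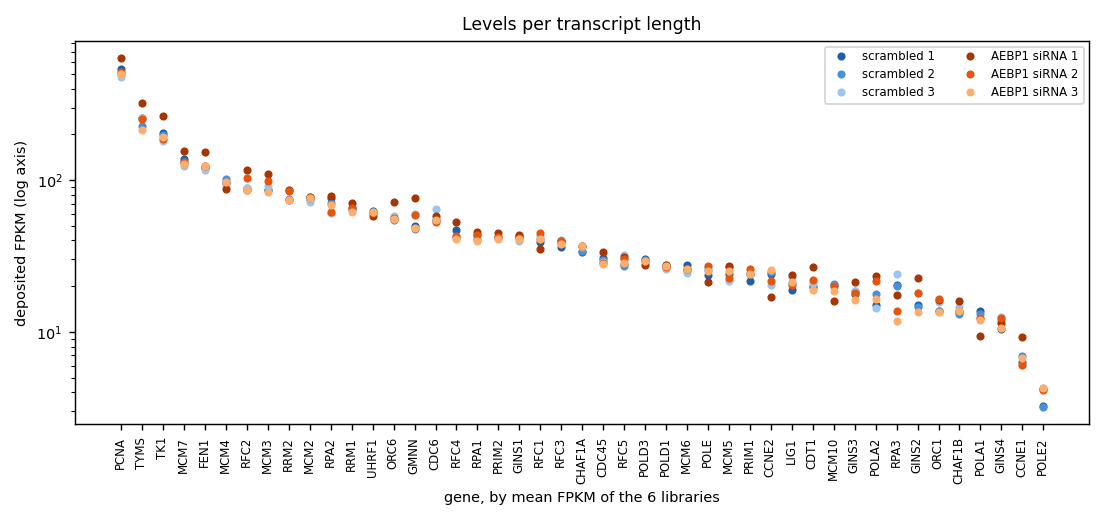
Level of each of the 45 genes per transcript length, as deposited FPKM on a log axis, with 1 point per library and genes ordered by their mean over the 6 libraries. PCNA, TYMS and TK1 sit highest and POLE2 lowest, and the points of a gene lie much closer to each other than the genes do.

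Against this spread of levels, the labelled groups differed little. No gene of the 45 passed an adjusted p of 0.05 in edgeR's quasi-likelihood test (Benjamini-Hochberg over all 16250 genes tested, all 45 among them), where 1 gene in all was called (0.00615%). At an unadjusted p under 0.05, 1 of the 45 was left, POLA2, and over all genes the share was 1.33%. DESeq2 called 0 of the 45 as well, where 6 genes in all were called (0.0277%), and limma-voom 0 of the 45, where 2 in all were (0.0123%). At an unadjusted p under 0.05, POLA2 was again the 1 member in both (1.26% of all genes in DESeq2 and 1.49% in limma-voom). The estimate was higher in the AEBP1 siRNA group for 31 of the 45 (68.9%, against 49.4% of all genes). Without the library labelled AEBP1 siRNA 1 it was higher for 19 of the 45. The median log2 fold change was 0.04, against -0.0023 over all genes tested, and it was -0.0059 without that library. Estimates ran from -0.23 for POLA1 to 0.41 for POLA2.

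The comparison was repeated without the libraries that go against their labels, replicate 3 of both groups. In edgeR it called 0 of the 45 (0.00614% of all genes), and 4 of the 45 had an unadjusted p under 0.05, against 4.7% of all genes. These 4 were GMNN (log2 fold change 0.44), GINS2 (0.44), POLA2 (0.45) and CCNE2 (-0.49), and their adjusted p lay between 0.910 and 0.967. Leaving out AEBP1 siRNA 1 as well kept 2 scrambled libraries and 1 AEBP1 siRNA library, whose own spread is then unknown. Again 0 of the 45 were called, where 1.46% of all genes were. The same 4 genes had an unadjusted p under 0.05, with log2 fold changes of 0.24, 0.26, 0.39 and -0.35, and so had ORC1 (0.22) and RPA2 (-0.27), making 6 of the 45 against 12.2% of all genes. Their adjusted p in edgeR ran from 0.124 to 0.391.

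The 3 libraries of each group did not overlap for 2 of the 45 genes (4.44%), against 5.93% of all genes. RFC2 was the gene that lay higher in the AEBP1 siRNA group (3.03% of all genes) and POLA1 the gene that lay lower (2.9%). The intervals bound only the difference between the groups as labelled. AEBP1 goes against the label in 2 of the 6 libraries, so they do not bound an effect of lower AEBP1. The 95% interval of the fold change lay within 1.2-fold in either direction for 12 of the 45 genes (26.7%, against 8.11% of all genes). It lay within 1.5-fold for 41 of the 45 (91.1%, against 60.4%) and within 2-fold for all 45 (79.2% of all genes). The SD of log2 CPM over the 6 libraries had a median of 0.11 for the 45 genes and 0.20 for all genes tested. These shares and medians were not matched for expression level, so they do not show the 45 genes to be unusually stable. In these bulk libraries, fewer cells in S phase and less RNA of these genes per cell cannot be told apart.

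**Figure D2:**
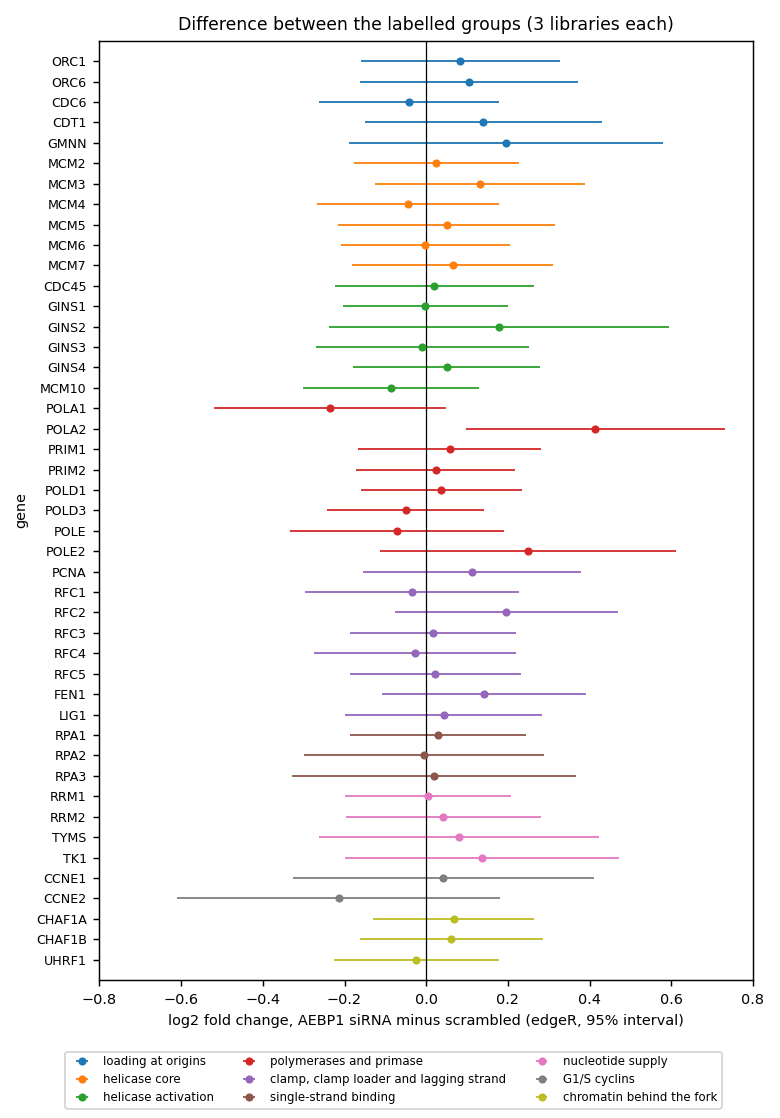
Log2 fold change of each of the 45 genes, AEBP1 siRNA minus scrambled as labelled (3 libraries each), from edgeR, with points for estimates, bars for 95% intervals and colours for roles. The interval of POLA2 is the 1 that leaves out 0, and its adjusted p is 0.991.

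Among the genes that load the helicase at origins, 0 of 5 were called and 4 of 5 estimates lay above 0. GMNN, the inhibitor of CDT1, was at 66.8, 64.6 and 81.4 CPM in scrambled 1 to 3 and at 100.6, 77.8 and 65.4 CPM in AEBP1 siRNA 1 to 3. The labelled groups overlapped apart from AEBP1 siRNA 1, which lay above the rest, and its log2 fold change was 0.20 with a standard error (SE) of 0.17 (edgeR, adjusted p = 0.991). The estimate was 0.01 without that library and 0.33 without AEBP1 siRNA 3. CDT1 itself was at 71.9, 72.8 and 76.0 CPM against 95.5, 78.9 and 68.9 CPM. ORC1, the largest subunit of the origin recognition complex, was at 48.9, 48.9 and 55.3 CPM against 56.5, 57.1 and 48.7 CPM. GMNN, CDT1 and ORC1 therefore each had their 3 highest values in the same libraries, scrambled 3 and AEBP1 siRNA 1 and 2, a split that cuts across the labels and was not tested. These were also the 3 libraries with the lowest AEBP1. Outside this role, GINS2, GINS4, MCM3, RRM2, RFC3, RFC5 and POLE2 showed the same split. MCM4, MCM10, POLD3, CCNE2 and UHRF1 showed it in the opposite direction, with their 3 lowest values in those libraries. The share of all genes with this split, in either direction, was not counted. The 5 origin loading genes together had a median of 0.08 above their own 6-library mean (log2 CPM) in scrambled 3, 0.28 in AEBP1 siRNA 1 and 0.04 in AEBP1 siRNA 2. In the other libraries that median lay between -0.11 and -0.09. ORC6, the most abundant of the 5 by FPKM, was highest in AEBP1 siRNA 1, at 129 CPM, and between 99.7 and 106 CPM elsewhere, and CDC6 ranged from 185 to 212 CPM.

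The helicase core had 0 of 6 genes called. MCM3 was at 297, 295 and 311 CPM in scrambled 1 to 3 and at 369, 331 and 289 CPM in AEBP1 siRNA 1 to 3, so the highest and the lowest library were both of the AEBP1 siRNA group (log2 fold change 0.13, SE 0.11, edgeR adjusted p = 0.991). MCM7 was at 461, 441 and 411 CPM against 511, 429 and 433 CPM. Its estimate of 0.07 turned to -0.02 without the library labelled AEBP1 siRNA 1. MCM2 (301 ± 12.4 against 306 ± 2.65 CPM, SD, n = 3 each) and MCM6 (109 ± 7.0 against 109 ± 1.13 CPM) had means within the spread of their libraries. MCM4 and MCM5 had estimates of -0.05 and 0.05.

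Of the 6 genes that activate the helicase, 0 were called and 3 had estimates above 0. GINS2 varied most among them, with 45.5, 43.0 and 53.1 CPM against 67.0, 53.0 and 40.3 CPM. The highest library and the lowest were again both labelled AEBP1 siRNA, and the estimate of 0.18 (SE 0.18, edgeR adjusted p = 0.991) turned to -0.02 without AEBP1 siRNA 1. GINS3, like GINS2, was highest in AEBP1 siRNA 1 (49.9 CPM) and lowest in AEBP1 siRNA 3 (39.1 CPM), with an estimate of -0.01. GINS4 had an estimate of 0.05 and lay on the same side of its 6-library mean as GINS2 in each library, over the narrower range of 42.9 to 49.8 CPM. GINS1 was at 152 ± 6.83 against 152 ± 3.44 CPM (SD, n = 3 each). MCM10, which helps to recruit polymerase alpha, was at 89.1, 89.3 and 87.5 CPM against 75.7, 86.3 and 88.4 CPM (-0.09, SE 0.09), with AEBP1 siRNA 1 the low library. CDC45 was at 63.5 ± 2.61 against 64.4 ± 7.16 CPM.

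**Figure D3:**
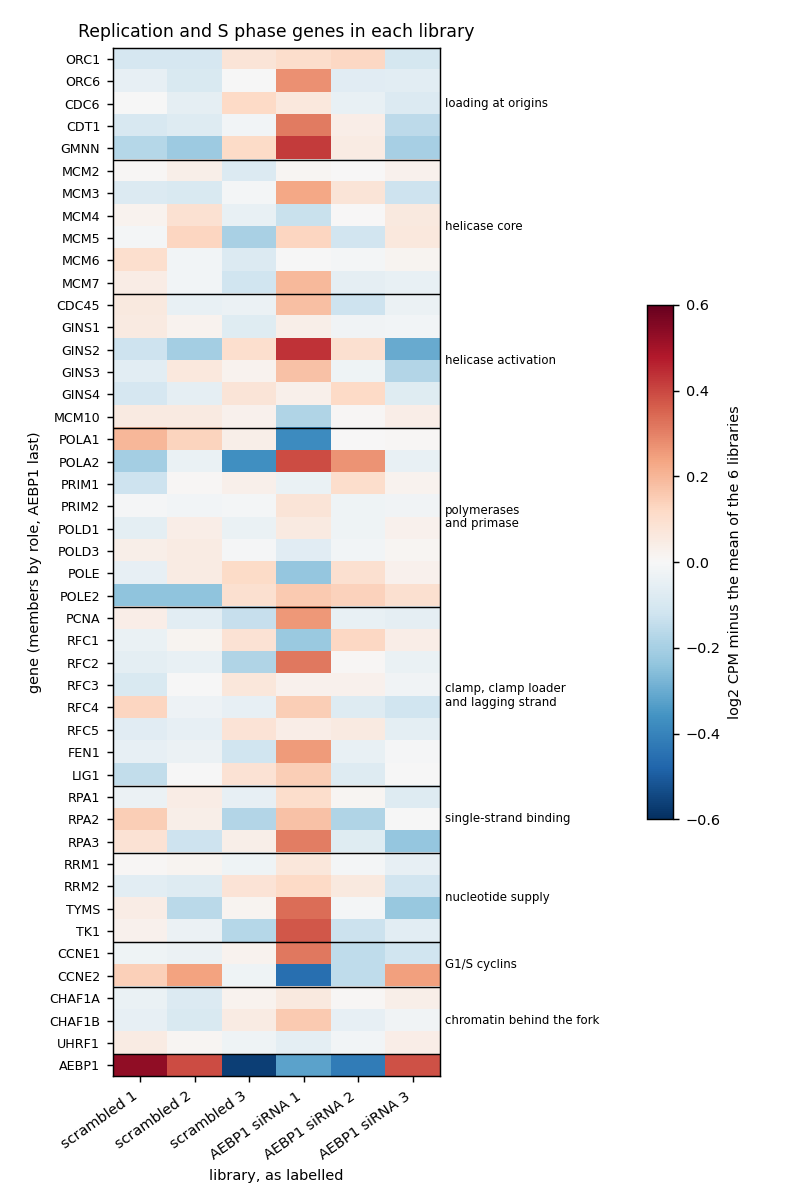
Heat map of log2 CPM minus the gene's mean over the 6 libraries, for the 45 genes by role and for AEBP1 in the last row, with libraries as labelled in columns. The column of AEBP1 siRNA 1 is mostly red, with POLA1, POLE, RFC1, MCM10 and CCNE2 among the blue cells, and no role changes colour between the labelled groups as a block.

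The polymerases and primase held the 2 ends of the range, and both belong to polymerase alpha. POLA1, its catalytic subunit, was at 85.4, 81.6 and 76.1 CPM in scrambled 1 to 3 and at 57.3, 74.5 and 74.7 CPM in AEBP1 siRNA 1 to 3. The groups did not overlap, by a margin of less than 2 CPM, and the log2 fold change of -0.23 (SE 0.12) had an unadjusted p of 0.0933 in edgeR and an adjusted p of 0.991. Without AEBP1 siRNA 1 it was -0.12. POLA2 was at 58.9, 66.1 and 52.7 CPM against 89.1, 81.9 and 65.9 CPM, with scrambled 2 just above AEBP1 siRNA 3. Its log2 fold change was 0.41 (SE 0.14, edgeR unadjusted p = 0.0167, adjusted p = 0.991). The ratio of POLA2 to POLA1 counts was thus 0.691, 0.810 and 0.692 in the scrambled libraries and 1.56, 1.10 and 0.881 in the AEBP1 siRNA libraries. Because it sets the 2 ends of the range against each other, a gap between the groups is built in, and the ratio was not tested. PRIM1 and PRIM2, which make up the primase of the same complex, differed by 0.06 and 0.02. POLE2 was at 6.11, 6.12 and 7.73 CPM against 8.05, 7.95 and 7.73 CPM (0.25, SE 0.16), and POLE, POLD1 and POLD3 had estimates of -0.07, 0.04 and -0.05.

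POLA2 shares exons with another gene of the table. This is AP000944.2 (ENSG00000285816), which GENCODE release 29 tags as a read-through gene on the same strand and which covers 35.1% of the exonic bases of POLA2 (ENSG00000014138). It was singled out after its values were seen. AP000944.2 was at 82.5, 71.8 and 93.6 CPM in scrambled 1 to 3 and at 53.6, 55.3 and 69.2 CPM in AEBP1 siRNA 1 to 3. It was thus lower where POLA2 was higher, and its groups did not overlap (log2 fold change -0.48, SE 0.14, edgeR unadjusted p = 0.0088, adjusted p = 0.991). The sum of both genes was 141, 138 and 146 CPM against 143, 137 and 135 CPM, which is 142 ± 4.21 against 138 ± 3.91 CPM (SD, n = 3 each, two-sided exact permutation test p = 0.4, where 0.1 is the smallest these groups allow). In edgeR, the sum fitted as 1 gene differed by -0.04 on the log2 scale, at an adjusted p of 0.991. The sum varied less between libraries than either gene did, and the POLA2 difference was not seen in it.

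**Figure D4:**
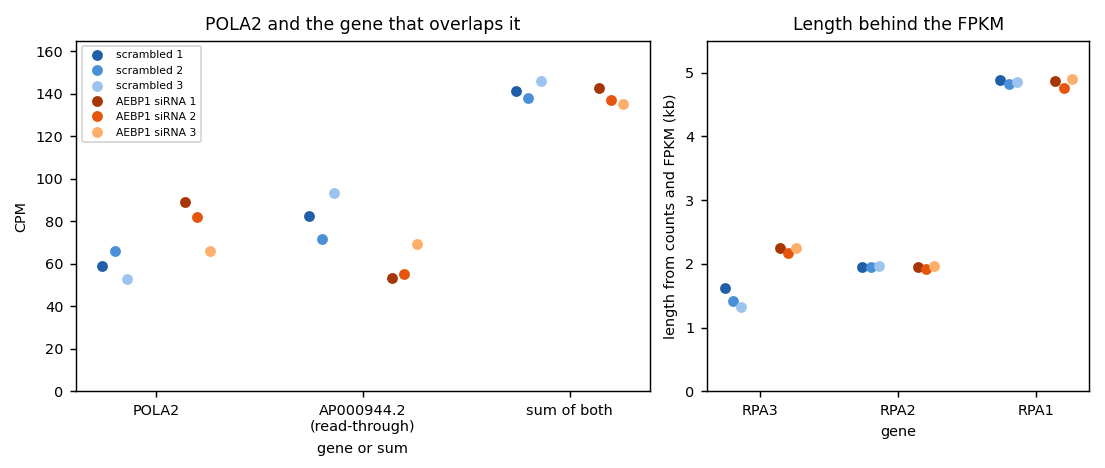
Left, CPM of POLA2, of the read-through gene AP000944.2 and of their sum in each library; right, the transcript length in kb implied by counts and FPKM for the 3 RPA genes, with blue points for scrambled and orange for AEBP1 siRNA libraries. POLA2 and AP000944.2 move in opposite directions with a sum of 135 to 146 CPM, and the length of RPA3 alone differs between the groups.

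The clamp, clamp loader and lagging strand genes had 0 of 8 called and 6 of 8 estimates above 0. RFC2, a small subunit of the clamp loader, was at 150, 151 and 138 CPM in scrambled 1 to 3 and at 194, 157 and 152 CPM in AEBP1 siRNA 1 to 3. The groups came within 1 CPM of each other, and AEBP1 siRNA 1 held most of the difference (log2 fold change 0.20, SE 0.12, edgeR adjusted p = 0.991; 0.08 without that library). RFC1, RFC3, RFC4 and RFC5 had estimates between -0.03 and 0.02. FEN1, the nuclease that trims the flaps of Okazaki fragments, was at 311, 315 and 296 CPM against 384, 312 and 321 CPM (0.14, SE 0.11). PCNA was at 815, 758 and 721 CPM against 948, 768 and 764 CPM (0.11, SE 0.12), and LIG1, which seals the fragments, at 90.3 ± 7.28 against 93.0 ± 7.54 CPM (SD, n = 3 each). AEBP1 siRNA 1 was the highest library for RFC2, FEN1 and PCNA.

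Replication protein A coats single-stranded DNA at the fork, and 0 of its 3 genes were called. RPA1 was at 203 ± 7.23 against 207 ± 13.0 CPM and RPA2 at 136 ± 15.1 against 135 ± 16.7 CPM (SD, n = 3 each). RPA3, the smallest subunit, had counts of 33.2, 28.7 and 32.0 CPM against 38.7, 29.8 and 26.7 CPM, with a log2 fold change of 0.02 (SE 0.15, edgeR adjusted p = 0.992). Its deposited FPKM told otherwise, with 20.4, 20.2 and 24.2 in scrambled 1 to 3 and 17.4, 13.7 and 11.7 in AEBP1 siRNA 1 to 3. The FPKM groups did not overlap. A limma fit on log2(FPKM + 1) gave a difference of -0.57, with an unadjusted p of 0.0051 but an adjusted p of 0.992. Both values cannot come from 1 fixed length: dividing counts by FPKM and library total gave lengths of 1622, 1417 and 1331 nt in the scrambled libraries and 2250, 2172 and 2255 nt in the AEBP1 siRNA libraries, a ratio of 1.53 between the means. Over 12031 genes with at least 100 counts in each library, such lengths did not overlap between groups in 5.85%, and did so with means at least 1.2-fold apart in 0.341%. Of the 45 genes, RPA3, GINS4 and RFC4 did not overlap (6.67%), and of these RPA3 alone passed 1.2-fold. The highest and lowest lengths were 1.03-fold apart for RPA1 and 1.02-fold for RPA2. Which transcripts of RPA3 the reads came from was not analysed here.

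The nucleotide supply genes had 0 of 4 called, with all 4 estimates above 0 and all 4 highest in AEBP1 siRNA 1. TK1 was at 376, 360 and 329 CPM in scrambled 1 to 3 and at 480, 338 and 354 CPM in AEBP1 siRNA 1 to 3. TYMS was at 482, 418 and 473 CPM against 589, 463 and 399 CPM. Their estimates of 0.14 (SE 0.15) and 0.08 (SE 0.15) turned to -0.04 and -0.09 without AEBP1 siRNA 1. RRM1 and RRM2, the large and small subunits of ribonucleotide reductase, differed by 0.0042 and 0.04. TYMS shares 39.1% of its exonic bases with ENOSF1 on the opposite strand, and RRM2 shares 20.2% with AC007240.1 on its own strand. Whether the counting used strand is not given in the sources, so how reads were divided there is uncertain.

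The G1/S cyclins, which activate CDK2, moved apart from each other in the library labelled AEBP1 siRNA 1, and neither was called. CCNE2 was at 78.6, 84.2 and 69.9 CPM in scrambled 1 to 3 and at 52.1, 64.0 and 84.5 CPM in AEBP1 siRNA 1 to 3 (log2 fold change -0.21, SE 0.17, edgeR adjusted p = 0.991). The AEBP1 siRNA group held both its lowest and its highest library, and the estimate was -0.06 without AEBP1 siRNA 1 and -0.42 without AEBP1 siRNA 3. CCNE1 was at 12.9, 12.8 and 13.3 CPM against 16.3, 11.8 and 12.1 CPM, highest in the library where CCNE2 was lowest, and its estimate of 0.04 turned to -0.12 without that library. CCNE2 shares 37% of its exonic bases with INTS8 on the opposite strand, so its counts have the same limit. Of the genes for chromatin behind the fork, 0 of 3 were called. CHAF1A and CHAF1B, subunits of the chromatin assembly factor that places histones on new DNA, had estimates of 0.07 (SE 0.09) and 0.06 (SE 0.10). UHRF1, which brings maintenance methylation to hemimethylated DNA, was at 268 ± 7.15 against 264 ± 9.04 CPM (SD, n = 3 each).

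The library labelled AEBP1 siRNA 1 carried most of the spread among the 45 genes, and gene length moved with it. Its value was the highest of the 6 libraries for 28 of the 45 genes and the lowest for 8, where over all tested genes it was the highest for 5232 and the lowest for 5293 of 16250. The 45 genes took 0.827% of its counts (95% exact binomial interval 0.824 to 0.830%, counting error only), against 0.721 to 0.743% in the other 5 libraries. The median distance from the 6-library mean in that library was 0.27 log2 units for the 14 members shorter than 2.32 kb, 0.08 for the 23 of middle length and -0.16 for the 8 longer than 4.29 kb. Over all genes tested, the same medians were 0.23, 0.05 and -0.23. Across the 45 genes, the Spearman correlation of this distance with length was -0.61 in AEBP1 siRNA 1 and between 0.05 and 0.48 in the other libraries. Points share a library, genes are not independent replicates, and the correlation is given as a description. The longest of the group, POLE (8.77 kb) and POLA1 (6.16 kb), lay below their means in that library, and GMNN (1.34 kb) lay above it. GINS2, POLA2 and CCNE2 lay away from the trend. Of the 8 members longer than 4.29 kb, CHAF1B and RPA1 lay above their means in that library, by 0.16 and 0.10. The rest of the 8 lay below. The part of length in the differences between the labelled groups was not tested.

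**Figure D5:**
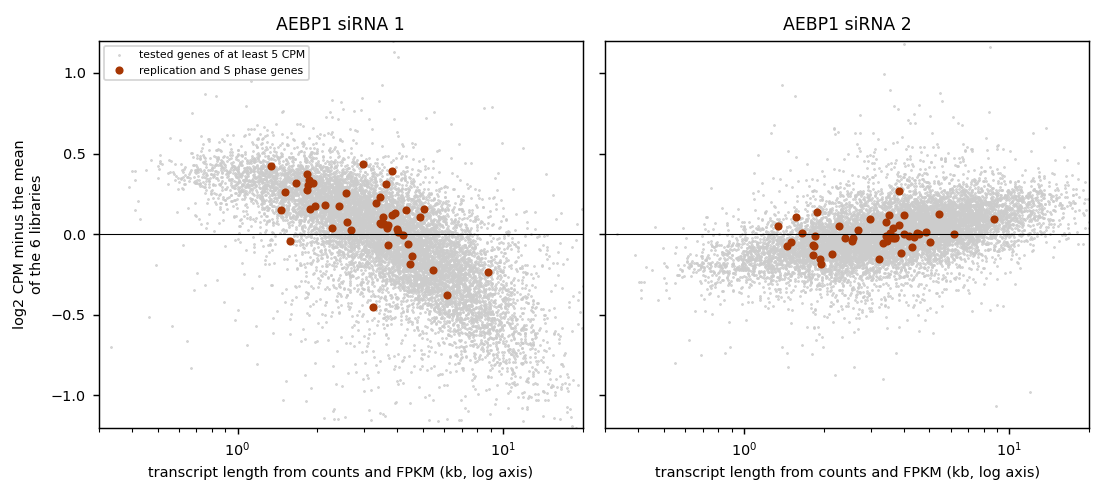
Distance of log2 CPM from the gene's 6-library mean against transcript length in kb (log axis, from counts and FPKM), in AEBP1 siRNA 1 and, for comparison, AEBP1 siRNA 2. Grey points are tested genes of at least 5 CPM, with those beyond the axes not drawn, and red points are the 45 genes. Short genes lie high and long genes low in AEBP1 siRNA 1, and most of the 45 genes follow the cloud, with CHAF1B and RPA1 among the exceptions.

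The other replication genes, a list of 52 further factors for origin loading, helicase and fork function, nucleotide supply and E2F control, gave the same count: 0 of 52 called, 0 at an unadjusted p under 0.05, and 28 of 52 (53.8%) with an estimate above 0. Their median log2 fold change was 0.02, with a range from -0.25 to 0.24. RRM2B, the p53-induced small subunit of ribonucleotide reductase, was at 39.0, 34.5 and 39.1 CPM in scrambled 1 to 3 and at 27.9, 37.4 and 29.5 CPM in AEBP1 siRNA 1 to 3. RNASEH2A, which removes ribonucleotides from DNA, was at 132, 119 and 123 CPM against 181, 131 and 129 CPM, with AEBP1 siRNA 1 far above the rest. POLE4, a small subunit of polymerase epsilon, was at 59.4, 59.5 and 58.8 CPM against 88.5, 58.4 and 61.2 CPM, so that 1 library made its estimate of 0.23.

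G2 and mitosis genes were set beside them as the next stage of the cycle. Of 20, 0 were called, 0 passed an unadjusted p of 0.05 and 5 had estimates above 0 (25%), with a median log2 fold change of -0.04. Their median distance from the 6-library mean was 0.09, 0.11 and -0.06 in scrambled 1 to 3 and -0.03, -0.08 and 0.06 in AEBP1 siRNA 1 to 3. The signs were the reverse of those of the origin loading genes, 1 of the 9 roles, in all 6 libraries. This did not hold for the 45 genes as a whole. Their medians were -0.03, -0.03 and -0.0063 in scrambled 1 to 3 and 0.12, -0.01 and -0.04 in AEBP1 siRNA 1 to 3. In scrambled 3 and AEBP1 siRNA 2 they had the same sign as the G2 and mitosis genes. Whether the 2 lists differ was not tested.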

How the data were processed

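Libraries were made from total RNA with a dual-mode mRNA kit, per the labels' protocols. The authors deposited whole-number counts and length-scaled FPKM for each of the 6 libraries in 1 table, per the file headers. Per the submitters' processing notes, reads were placed on hg19. No source used here gives the aligner, counter, annotation or strand setting. Of the lines, 17 without values were left out. Genes passing filterByExpr were tested on the deposited counts with edgeR 4.0.16 (TMM, quasi-likelihood, group as the only term, Benjamini-Hochberg over all genes, R 4.3.3). SEs are the fold change over the root of F, and CPM are scaled by TMM. DESeq2 1.42.0, limma 3.58.1 (voom, and log2 of FPKM plus 1 or 0.1), other scalings and filters, left-out libraries and a replicate block were the alternatives. Transcript length was counts divided by FPKM and total. The fits were tested on simulated data.

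Genes with individual tests were the 2 with the smallest p and the most abundant of each of 9 roles, and 3 other replication genes; the rest of the 45 were described by role. The members and lists were chosen with earlier results of these data known. Overlaps and promoters came from GENCODE 29 and RefSeq (GRCh38), by name only. Same-numbered libraries did not deviate together (correlations 0.07, -0.01 and -0.10), and no pair of libraries was alike within counting noise. The pair that came closest to it was scrambled 3 with AEBP1 siRNA 2, across the labels.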

Additional observations from a re-analysis of the deposited data

How the results depend on the processing

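The count of 0 replication and S phase genes called, and of 0 other replication genes called, was the same under all 20 alternatives, the threshold of 0.01 and the addition of AP000944.2 to POLA2, chosen after seeing the data, among them. That sameness says little, because the threshold of 0.01 cannot raise a count of 0. The refits also called only 0 to 6 genes in all, apart from the refit that left 1 AEBP1 siRNA library. With a replicate block, 0 were called, 32 of 45 estimates lay above 0 and the median was 0.03. The median of the 45 ranged from -0.0059 to 0.06 with each library left out in turn, and was negative when AEBP1 siRNA 1 was the one left out. Upper quartile scaling moved the count above 0 from 31 to 35, and the median over all genes tested moved too, from -0.0023 to 0.014. Of 23 genes followed singly, AEBP1 and AP000944.2 among them, 11 kept their direction under every alternative run for them. With each library left out in turn, fold changes crossed 0 for MCM7 (-0.0208 to 0.109), GINS2 (-0.0182 to 0.345), RPA1 (-0.0183 to 0.0718), RPA3 (-0.150 to 0.129), TK1 (-0.0379 to 0.230), TYMS (-0.0860 to 0.201), CCNE1 (-0.124 to 0.126) and CHAF1B (-0.00591 to 0.102). Each did so without AEBP1 siRNA 1, and RPA3 also without scrambled 2. Without AEBP1 siRNA 1, the estimates of GMNN (0.0135), CDT1 (0.0062), MCM3 (0.0426), MCM10 (-0.0206), POLA1 (-0.119), RFC2 (0.0770), FEN1 (0.0424), CCNE2 (-0.0630), RNASEH2A (0.0622) and POLE4 (0.0136) kept their sign but were over 1.5 times smaller. With both replicates 3 and AEBP1 siRNA 1 left out, which leaves 1 AEBP1 siRNA library assumed to vary like the scrambled ones, 249 genes were called in all (1.46%) and 0 of the 45. There MCM7 was at -0.0692, FEN1 at -0.00200, RPA3 at -0.0547, TK1 at -0.122, CCNE1 at -0.122, RRM2B at 0.0289 and POLE4 at -0.0254. RPA3 was at -0.573 and -0.604 on log2 FPKM with 1 and 0.1 added, where the implied lengths differed, and POLA2 at -0.0363 with AP000944.2 added. For the others the cause was not tested. With 3 libraries a group and AEBP1 against the label in 2, the 95% interval stayed within 1.2-fold for 12 of the 45 and within 1.5-fold for 41.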
